A study of Homo sapiens with 4 samples.

Results

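The levels of 10 genes of the Hippo pathway were described in SKOV3 cells, a line established from a human ovarian cancer, out of 19475 gene symbols with FPKM values. They were picked by symbol, and for each symbol the RefSeq transcript with the highest mean FPKM over the 4 libraries was used. FPKM is the number of sequenced tags of a gene divided by transcript length and by library depth. There were 7 genes described as targets of the pathway (CTGF, CYR61, ANKRD1, CRIM1, AXL, AMOTL2 and LATS2) and 3 components (YAP1, WWTR1 and TEAD1). All 10 were found and all 10 passed the filter on low values, which asked for 2 or more libraries with an FPKM of 1 or above. The genes were proposed with their change in these same libraries known, so their change is described here and not tested.

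RNA-seq was performed on 2 libraries of cells on a tissue culture plate (TCP), labelled day 0, and on 2 libraries of tumor spheroids on the polymer X film, labelled day 8. Polymer X is a film on which the cells grew as spheroids. The values were scaled to between 38404000 and 44916000 tags per library. All libraries came from the same line, for which no genetic change is labelled. Nothing in the labels says whether replicates were separate cultures, so the p-values given here measure only the spread between these libraries, which may be technical. Substrate and culture time changed together. By the paper's methods, SKOV3 cells were kept in fetal bovine serum and spheroids in serum replacement, whereas the labels give serum replacement for every library. The effects of substrate, time and medium cannot be told apart in these data.

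The Hippo pathway is a kinase cascade that restrains growth. The kinases STK3 and STK4 activate LATS1 and LATS2, which phosphorylate the coactivators YAP1 and TAZ (encoded by WWTR1) and keep them out of the nucleus. Unphosphorylated YAP1 and TAZ bind DNA through the TEAD transcription factors and raise the transcription of genes such as CTGF and CYR61. The pathway is known for responding to cell contact, cell shape and attachment, and much of its control acts on the proteins and not on the mRNA of its components.

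The letters bound by TEAD proteins are commonly given as GGAATG, or CATTCC on the other strand. Of the 10 members, 7 were matched in the table of RefSeq promoter windows used here (build GRCh38.p14), with 10 windows in all, since AXL, AMOTL2 and WWTR1 had more than 1 start. In the 250 bases before the start, these letters were found on either strand in 5 of the 10 windows, 1 window each of CTGF, ANKRD1, AXL, AMOTL2 and YAP1. Over all 35116 windows of that length, 11.9% held at least 1 match, 0.940% at least 2 and 0.0826% at least 3. Windows of CYR61, CRIM1 and TEAD1 were not analysed here. Below are the windows of 3 targets that differ in the number of matches and that of the coactivator YAP1, written 5′ to 3′ on the strand of the gene, with the matches in capitals.
CTGF, chr6:131951373-131951622, minus strand: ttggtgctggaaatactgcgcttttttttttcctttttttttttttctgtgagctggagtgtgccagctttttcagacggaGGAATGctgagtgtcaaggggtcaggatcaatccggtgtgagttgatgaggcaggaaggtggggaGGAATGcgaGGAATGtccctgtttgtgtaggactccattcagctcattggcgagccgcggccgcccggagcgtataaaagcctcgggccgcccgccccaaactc
ANKRD1, chr10:90921088-90921337, minus strand: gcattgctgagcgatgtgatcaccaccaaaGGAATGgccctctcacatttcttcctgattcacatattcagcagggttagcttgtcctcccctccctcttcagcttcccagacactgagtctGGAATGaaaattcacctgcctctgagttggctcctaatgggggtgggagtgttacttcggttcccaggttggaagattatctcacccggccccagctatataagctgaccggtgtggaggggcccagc
AMOTL2, chr3:134374448-134374697, minus strand: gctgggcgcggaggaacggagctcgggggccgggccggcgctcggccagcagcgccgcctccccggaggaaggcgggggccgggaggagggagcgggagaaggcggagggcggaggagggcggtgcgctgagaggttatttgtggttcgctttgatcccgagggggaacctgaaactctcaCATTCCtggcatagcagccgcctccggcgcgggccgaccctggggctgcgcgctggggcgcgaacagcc
YAP1, chr11:102110197-102110446, plus strand: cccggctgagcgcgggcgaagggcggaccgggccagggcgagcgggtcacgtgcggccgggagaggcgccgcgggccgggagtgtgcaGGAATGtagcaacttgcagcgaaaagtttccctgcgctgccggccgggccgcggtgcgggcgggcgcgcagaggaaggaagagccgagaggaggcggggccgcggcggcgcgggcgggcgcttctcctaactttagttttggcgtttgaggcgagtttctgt

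The window of CTGF held 3 matches, which began 169, 104 and 95 bases before the start. In that of ANKRD1 there were 2, at 220 and 128 bases. The match of AMOTL2 began 69 bases before the second of its listed starts, that of AXL 212 bases before its second start, and that of YAP1 162 bases before its start. In AMOTL2 and AXL the letters lay on the opposite strand. The windows of LATS2 and WWTR1 held none. A match is a string of letters and not a measured binding site, and a window without these letters says nothing of TEAD at other positions.

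All 10 members had lower FPKM on polymer X than on TCP, and the targets covered a far wider range of change than the components. Summed over the 7 targets, the FPKM was 374 and 386 in TCP replicates 1 and 2 and 33.4 and 35.1 in polymer X replicates 1 and 2, an 11.1-fold difference between the group means. Summed over YAP1, WWTR1 and TEAD1 it was 98.5 and 102 on TCP and 69.5 and 64.6 on polymer X, a 1.49-fold difference. The ratio of the first sum to the second was 3.799 in TCP replicate 1, 3.801 in TCP replicate 2, and 0.480 and 0.543 on polymer X. CTGF, CYR61 and AXL made up 74.9% and 74.4% of the target sum on TCP and 37.5% and 37.7% on polymer X. The sum is thus weighted to abundant genes, and single targets differed from 1.67-fold (LATS2) to 66.2-fold (CTGF). Because the samples were bulk cultures, fewer cells expressing a gene and less RNA per cell cannot be told apart.

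**Figure D1:**
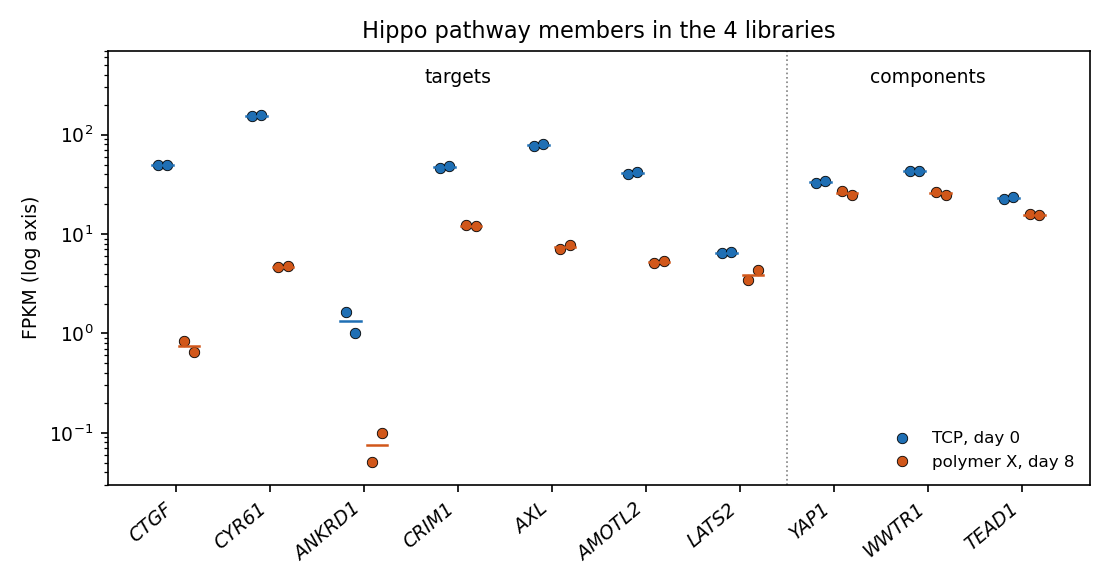
FPKM (log axis) of the 10 members in each library, with blue points for TCP, orange points for polymer X (2 libraries each) and a line at the mean. For CTGF the points lie at 49.5 and 49.7 on TCP and at 0.845 and 0.652 on polymer X, whereas for YAP1 they lie at 32.8 and 34.3 against 26.9 and 24.5.

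CTGF and CYR61 encode CCN2 and CCN1, secreted matricellular proteins of the CCN family that bind integrins, and they are the targets most often used as readouts of YAP1 and TAZ. CTGF (NM_001901, hg19 chr6:132269317-132272518, minus strand) had an FPKM of 49.5 and 49.7 in the TCP libraries and of 0.845 and 0.652 in the polymer X libraries. Both polymer X values were under 1, so CTGF passed the filter only through the TCP libraries. The group means differed 66.2-fold, and the ratio of single libraries lay between 58.6 and 76.2. On polymer X, CTGF was thus left with 79 and 62 tags, against 4442 and 5210 on TCP, and scaled to depth the ratio of these tags was 66.3 with an exact 95% interval of 56.2 to 78.9, which covers counting error only. CYR61 (NM_001554, hg19 chr1:86046444-86049648, plus strand) had an FPKM of 154 and 157 on TCP and of 4.62 and 4.74 on polymer X, a 33.2-fold difference. CYR61 was the more abundant of the pair in every library, with 3.12 and 3.16 times the FPKM of CTGF on TCP and 5.47 and 7.27 times on polymer X. On the scale of log2(FPKM + 1), the changes were -4.86 for CTGF (standard error 0.07, limma) and -4.78 for CYR61 (standard error 0.05).

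AXL is a receptor tyrosine kinase that binds GAS6. AXL (NM_021913, hg19 chr19:41725104-41767672, plus strand) had an FPKM of 76.3 and 80.9 on TCP and of 7.06 and 7.81 on polymer X, a 10.6-fold difference of the means. CRIM1 is a transmembrane protein that binds bone morphogenetic proteins. CRIM1 (NM_016441, hg19 chr2:36583370-36778278, plus strand) had an FPKM of 45.9 and 48.7 on TCP and of 12.3 and 12.1 on polymer X, a 3.88-fold difference. In both genes replicates lay close together and the groups did not overlap, as in 90.4% of the 11964 genes tested.

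ANKRD1 encodes a nuclear ankyrin repeat protein of muscle and is a target with a low level in these cells. ANKRD1 (NM_014391, hg19 chr10:92671857-92681032, minus strand) had an FPKM of 1.66 and 1.01 on TCP and of 0.051 and 0.10 on polymer X. These values came from 125 and 89 tags on TCP and from 4 and 8 tags on polymer X, so their ratio of 17.3, scaled to depth, had an exact 95% counting interval of 9.69 to 34.0. On the scale of log2(FPKM + 1) the change was -1.10 (standard error 0.13), which understates a ratio at this level, and with a pseudocount of 0.1 it was -3.01. Like CTGF, it passed the filter only through the TCP libraries. Without TCP replicate 1 the change was -0.90, short of the fold change minimum given below.

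AMOTL2 and LATS2 are targets that act back on the pathway, since AMOTL2 binds and retains YAP1 and TAZ and LATS2 is the kinase that phosphorylates them. AMOTL2 (NM_001278685, hg19 chr3:134074187-134093427, minus strand) had an FPKM of 39.99 and 42.4 on TCP and of 5.09 and 5.35 on polymer X, a 7.89-fold difference of the means. LATS2 (NM_014572, hg19 chr13:21547176-21635722, minus strand) had an FPKM of 6.38 and 6.64 on TCP and of 3.48 and 4.31 on polymer X, a 1.67-fold difference. Both feedback genes were lower on polymer X without overlap, as were 48.4% of the 11964 genes tested. The difference of LATS2 was the smallest of the 7 targets by ratio, and its polymer X replicates lay further apart than its TCP replicates. The FPKM of LATS2 was 1.13 and 1.10 times that of its paralog LATS1 on TCP and 0.674 and 0.901 times on polymer X.

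YAP1, WWTR1 and TEAD1 stayed well expressed in both conditions. YAP1 (NM_006106, hg19 chr11:101981192-102104154, plus strand) had an FPKM of 32.8 and 34.3 on TCP and of 26.9 and 24.5 on polymer X, so that the mean on polymer X was 76.5% of that on TCP. WWTR1 (NM_001168280, hg19 chr3:149235016-149375812, minus strand) had an FPKM of 43.2 and 43.5 on TCP and of 26.7 and 24.7 on polymer X, or 59.2%. TEAD1 (NM_021961, hg19 chr11:12695969-12966284, plus strand), the DNA-binding partner, had an FPKM of 22.4 and 23.7 on TCP and of 15.9 and 15.4 on polymer X, or 67.9%. WWTR1 was above YAP1 on TCP, at 1.32 and 1.27 times its FPKM, and close to YAP1 on polymer X, at 0.991 and 1.01 times. On the scale of log2(FPKM + 1), the changes were -0.37 for YAP1, -0.73 for WWTR1 and -0.53 for TEAD1, each with a standard error of 0.06. Under quantile normalization they were -0.14, -0.47 and -0.34.

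**Figure D2:**
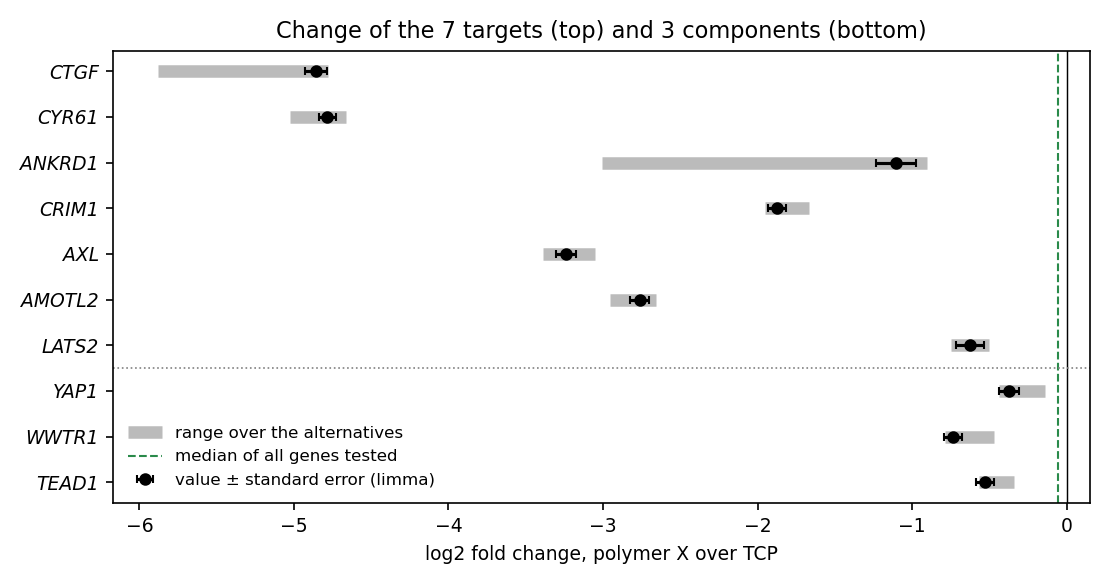
Change of each member on the scale of log2(FPKM + 1), polymer X over TCP, as the value with its standard error from limma (2 libraries a group), over a grey bar that spans the alternative settings tried. CTGF and CYR61 lie near -4.86 and -4.78, the 3 components lie between -0.73 and -0.37, LATS2 at -0.62 lies among the components, and the dashed line marks the median of all genes tested, -0.06.

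The log2 changes of the 7 targets spanned -4.86 to -0.62 with a median of -2.76, and those of the components -0.73 to -0.37 with a median of -0.53, beside a median of -0.06 over the 11964 genes tested. Calls required an adjusted p in limma (Benjamini-Hochberg, over all genes tested) under 0.05 and a log2 change of 1 or more in size. By that rule, 6 of the 7 targets (LATS2 was the exception) and 0 of the 3 components were called lower. Of all genes tested, 9.45% were called lower and 20.2% were called in either direction. Since the members were proposed from this change, nothing is read from these counts. The libraries of the groups did not overlap in any of the 10 members, nor in 90.4% of all genes tested, and in 48.4% of all genes both polymer X libraries lay below both TCP libraries. Ordered from the largest fall, CTGF was number 2, CYR61 number 3, AXL number 13 and AMOTL2 number 23 of the 11964 genes. CRIM1 was number 197 and ANKRD1 number 915. The component WWTR1, at number 2027, lay ahead of the target LATS2, at number 2541, and TEAD1 was number 3040 and YAP1 number 3961. Nothing is read from these ranks either.

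The choice of transcript had little bearing on these values. CTGF, CYR61, ANKRD1, CRIM1, LATS2 and TEAD1 had 1 listed transcript each. Over the 9 transcripts of YAP1, the log2 change lay between -0.38 and -0.31, over the 4 of WWTR1 between -0.74 and -0.73, over the 3 of AXL between -3.24 and -3.21, and over the 3 of AMOTL2 between -2.76 and -2.74. Transcripts of a gene share tags and are not replicates. No other listed gene overlapped a member, but the file lists only coding transcripts and tags were counted without regard to strand, so tags of an antisense RNA would be included.

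Markers of the cell line were detected in part, and their levels differed between the groups. On TCP, the keratins KRT8 and KRT18 had mean FPKM of 265 and 122. ERBB2, which is amplified in this line, had 202, and PAX8, a transcription factor of ovarian carcinoma, 49.7. On polymer X the means were 144 for KRT8, 89.5 for KRT18, 887 for ERBB2 and 105 for PAX8. EPCAM, KRT19, MUC16 and WT1 had mean FPKM under 1 on TCP, and on polymer X that of EPCAM was 1.36 and those of the other 3 were under 1. Of 9 markers of immune, endothelial and stromal cells, 1 on TCP and 2 on polymer X had a mean FPKM of at least 1, and their summed FPKM was 8.48 and 8.60 on TCP and 12.6 and 11.3 on polymer X. Of the 9 means, 6 were higher and 2 lower on polymer X. COL1A1, a collagen of stroma, made up most of the sum on TCP, with a mean of 8.34 against 3.79 on polymer X, and PDGFRB had 0.0945 and 0.0705. DCN, a stromal proteoglycan, had a mean FPKM of 0.0125 on TCP and 6.73 on polymer X, PTPRC 0.0025 and 0.499, and PECAM1, with 0 tags on TCP, 0.516 on polymer X. CD3E was at 0 in all libraries. The part of such markers in the changes of the members was not tested.

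Beyond the chosen members, the rest of the pathway and of its described targets was described in lists written from general knowledge, which leave the members out. All these lists were written with earlier results of these data known, so their counts are no independent evidence of a direction. The first was the other 15 genes of a commonly used signature of YAP1 and TAZ activity, the signature from which the 7 targets above also come. Of these, 14 were tested, 3 were called lower (21.4%, against 9.45% of all genes) and 2 higher (against 10.7% of all genes), and their median log2 change was -0.59. GADD45A, a growth arrest and DNA damage gene, had an FPKM of 251 and 242 on TCP and of 21.5 and 20.7 on polymer X and was called lower, with a log2 change of -3.48 (standard error 0.06, limma, adjusted p = 2.4e-10). The growth factor TGFB2 and the kinase NUAK2 were also called lower, with log2 changes of -2.50 (limma, adjusted p = 5.8e-09) and -1.06 (limma, adjusted p = 1.9e-06), and without TCP replicate 2 that of NUAK2 was -0.99. TGFB2, with an FPKM of 0.651 and 0.599 on polymer X, passed the filter only through the TCP libraries, the group where it was high. On the other side stood IGFBP3, which encodes an insulin-like growth factor binding protein, with an FPKM of 106 and 107 on TCP and of 993 and 1155 on polymer X, a log2 change of 3.32 (standard error 0.08, limma, adjusted p = 1.9e-09). NT5E, which encodes the ectonucleotidase CD73, rose with a log2 change of 1.13 (limma, adjusted p = 1.9e-07). The remaining 9 tested genes of this list had log2 changes between -0.68 and 0.33, and FJX1 was below the filter. Calls in this list thus went in both directions.

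The further list held 13 genes often named as targets of the pathway, among them regulators of matrix, vessels and cell division. Of the 11 tested, 6 were called lower (54.5%, against 9.45% of all genes) and 1 higher (against 10.7% of all genes). The median log2 change was -1.72. THBS1, which encodes the matricellular protein thrombospondin 1, had an FPKM of 116 and 124 on TCP and of 0.765 and 0.620 on polymer X, a log2 change of -6.16 (limma, adjusted p = 6.1e-11). It passed the filter only through the TCP libraries, the group where it was high. EDN1, the precursor of endothelin 1, was called lower with a log2 change of -3.21 (limma, adjusted p = 4.8e-10), from an FPKM of 72.1 and 70.6 to 7.03 and 6.66. BIRC5, which encodes survivin, a gene of mitosis as well as a described target, was called lower from an FPKM of 77.3 and 73.3 to 10.9 and 12.2, a log2 change of -2.60 (limma, adjusted p = 2.6e-09). CAV1, FSTL1 and ARHGAP29 made up the other calls, with log2 changes between -1.93 and -1.72, and these 3 were named after their values were seen. ITGB2, an integrin subunit of white blood cells, was the 1 gene called higher, from an FPKM of 0.587 and 0.631 to 4.28 and 4.20 (log2 change 1.70, limma, adjusted p = 6.0e-08). It passed the filter only through the polymer X libraries, the group where it was high. FGF1 did not pass the filter, and with 119 and 87 tags on TCP and 0 on polymer X it was at least 33.9-fold lower, against a floor of 3 tags per library. The list was written with earlier results of these data known, so its count is no independent evidence of a direction.

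**Figure D3:**
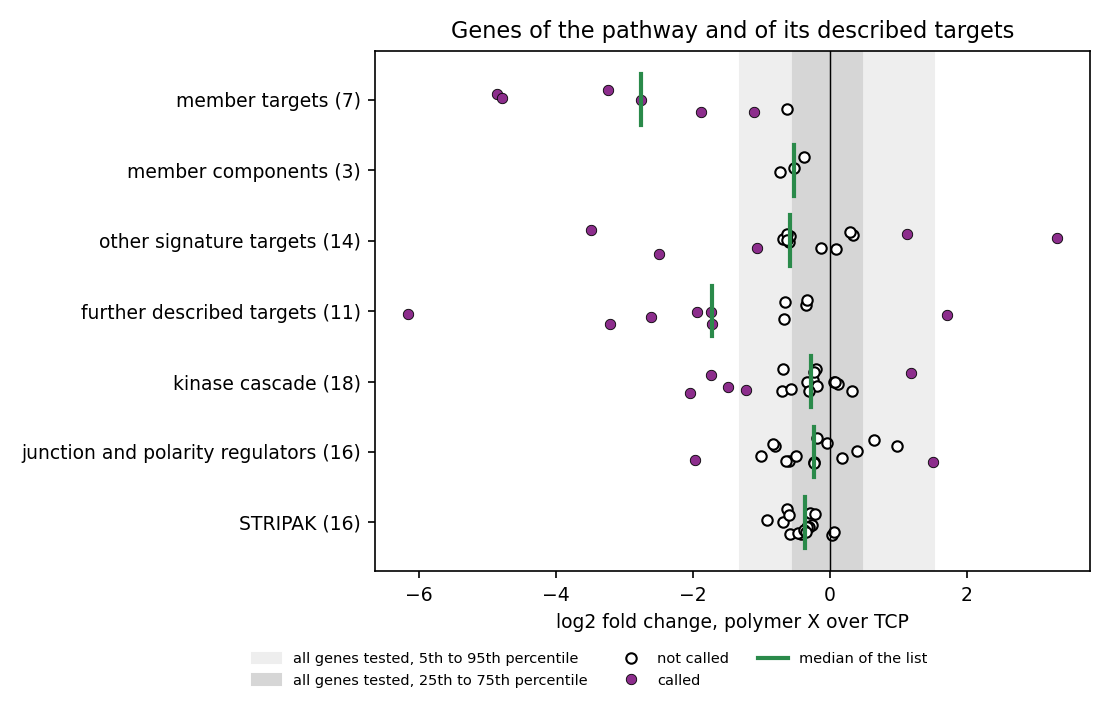
Change of single genes, polymer X over TCP, on the scale of log2(FPKM + 1) for 7 lists with the number of genes tested in brackets, where filled points are genes called higher or lower, open points are not called, and a green line is the median of a list. The darker and lighter grey bands hold the middle of all genes tested, between the percentiles in the key. The other signature targets lie on both sides of 0, from GADD45A at -3.48 to IGFBP3 at 3.32, and the STRIPAK list has no filled point.

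The kinase cascade list held 19 genes of the MST and LATS kinases, their adaptors and upstream activators. Of the 18 tested, 4 were called lower (22.2%, against 9.45% of all genes) and 1 higher (against 10.7% of all genes). The median log2 change was -0.28, against -0.06 over all genes tested. The genes called lower were scaffolds and not kinases. FRMD6, a FERM domain protein, had an FPKM of 36.3 and 37.1 on TCP and of 8.63 and 7.76 on polymer X, a log2 change of -2.04 (limma, adjusted p = 7.8e-09). NF2, which encodes merlin, the tumor suppressor that brings LATS kinases to the membrane, had an FPKM of 23.7 and 24.0 on TCP and of 6.78 and 6.13 on polymer X, a log2 change of -1.74 (limma, adjusted p = 2.0e-08). WWC1, also known as KIBRA, was called lower with a log2 change of -1.48 (limma, adjusted p = 3.4e-08). Its paralog WWC2 was called lower as well, with a log2 change of -1.22, and was named after its values were seen. The third paralog WWC3 was called higher, from an FPKM of 3.01 and 3.37 to 8.39 and 8.58, a log2 change of 1.18 (limma, adjusted p = 4.7e-07). The central kinases were not called, and they were chosen for mention after their values were seen. STK3 had a log2 change of -0.34, STK4 of 0.08 and LATS1 of -0.20.

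Of the 18 junction and polarity regulators, 16 were tested, and their median log2 change was -0.23. In this list 1 gene was called lower (6.25%, against 9.45% of all genes) and 1 higher (against 10.7% of all genes). MPP5, with a log2 change of -0.998, and LIMD1, with 0.98, stopped just short of the minimum of 1. Both were named after their values were seen. AJUBA, a LIM protein that inhibits LATS kinases, had an FPKM of 28.8 and 29.3 on TCP and of 6.75 and 6.69 on polymer X, a log2 change of -1.96 (limma, adjusted p = 5.2e-09). DCHS1, a giant cadherin, had an FPKM of 0.618 and 0.695 on TCP and of 3.63 and 3.73 on polymer X, a 5.61-fold difference (limma, adjusted p = 1.5e-07). It passed the filter only through the polymer X libraries, the group where it was high. STRIPAK is a phosphatase complex that counteracts the kinases STK3 and STK4. All 16 of its listed genes were tested and 0 were called by limma, against 20.2% of all genes. At an adjusted p in limma under 0.05 with no fold change minimum, 14 of them were lower and 0 higher, against 43.6% lower and 37.4% higher among all genes tested. The median log2 change of the 16 was -0.36, and it was -0.35 among those with a mean FPKM of at least 5. Of the 14, STRIP2 had an FPKM of 1.63 in both TCP libraries and of 0.708 and 0.765 on polymer X. It passed the filter only through the TCP libraries, the group where it was high, and was named after its values were seen. The same 14 were those with an unadjusted p under 0.05. None of them fell by 1 or more on the log2 scale, and the largest change in the list was that of the phosphatase subunit PPP2CA, at -0.92, named after its value was seen.

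The TEAD and VGLL genes moved in different directions. Of 7 TEAD and VGLL genes beside TEAD1, 4 were tested. Of these, 1 was called higher (against 10.7% of all genes) and 1 lower (against 9.45% of all genes). TEAD1 to TEAD4 encode the 4 TEAD factors, and summed over them the FPKM was 55.2 and 58.1 on TCP and 51.1 and 49.5 on polymer X. TEAD4 had an FPKM of 14.4 and 14.6 on TCP and of 5.80 and 5.72 on polymer X and was called lower, with a log2 change of -1.20 (limma, adjusted p = 1.3e-07). TEAD2 had an FPKM of 9.07 and 10.1 on TCP and of 19.9 and 19.0 on polymer X, a log2 change of 0.95 (standard error 0.07, limma, adjusted p = 1.2e-06) that stopped short of the minimum of 1. It passed this minimum with a pseudocount of 0.1 (1.01), under quantile normalization (1.08) and without TCP replicate 2 (1.02). TEAD3 had an FPKM of 9.30 and 9.69 on TCP and of 9.49 and 9.37 on polymer X, so its groups overlapped, and its log2 change, -0.01, was 0.05 under quantile normalization. The share of TEAD1 in the summed FPKM of the 4 factors was 40.6% and 40.8% on TCP and 31.1% and 31.2% on polymer X.

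VGLL proteins compete with YAP1 and TAZ for TEAD. VGLL4, known as a repressor of TEAD-dependent transcription, had an FPKM of 14.28 and 14.01 on TCP and of 45.9 and 43.7 on polymer X and was called higher, with a log2 change of 1.60 (standard error 0.06, limma, adjusted p = 1.3e-08). On polymer X its FPKM was thus above that of YAP1, WWTR1 and each TEAD. On TCP it lay below YAP1, WWTR1 and TEAD1, and slightly below TEAD4. VGLL3 had an FPKM of 0.725 and 0.663 on TCP and of 0.353 and 0.279 on polymer X and did not pass the filter. VGLL1 had 0 tags in all libraries and VGLL2 at most 2.

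CTGF and CYR61 were set beside the other 4 genes of the CCN family, which share most of their domains. Of these, 2 were tested and both were called higher, against 10.7% of all genes. WISP2, which encodes CCN5, had an FPKM of 0.964 and 0.810 on TCP and of 28.5 and 32.4 on polymer X, a log2 change of 4.06 (standard error 0.08, limma, adjusted p = 9.2e-10). It passed the filter only through the polymer X libraries, the group where it was high. NOV, which encodes CCN3, had an FPKM of 2.84 and 2.92 on TCP and of 20.04 and 18.3 on polymer X, a log2 change of 2.38 (standard error 0.07, limma, adjusted p = 5.2e-09). Within the family the order of these levels turned round. On TCP, CYR61 and CTGF had the highest FPKM of the 6 genes, and on polymer X it was WISP2 and NOV, with CYR61 next. WISP1, with 0 tags on TCP and 22 and 32 on polymer X, was at least 9.24-fold higher there, against a floor of 3 tags per library, and WISP3 had at most 4 tags.

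**Figure D4:**
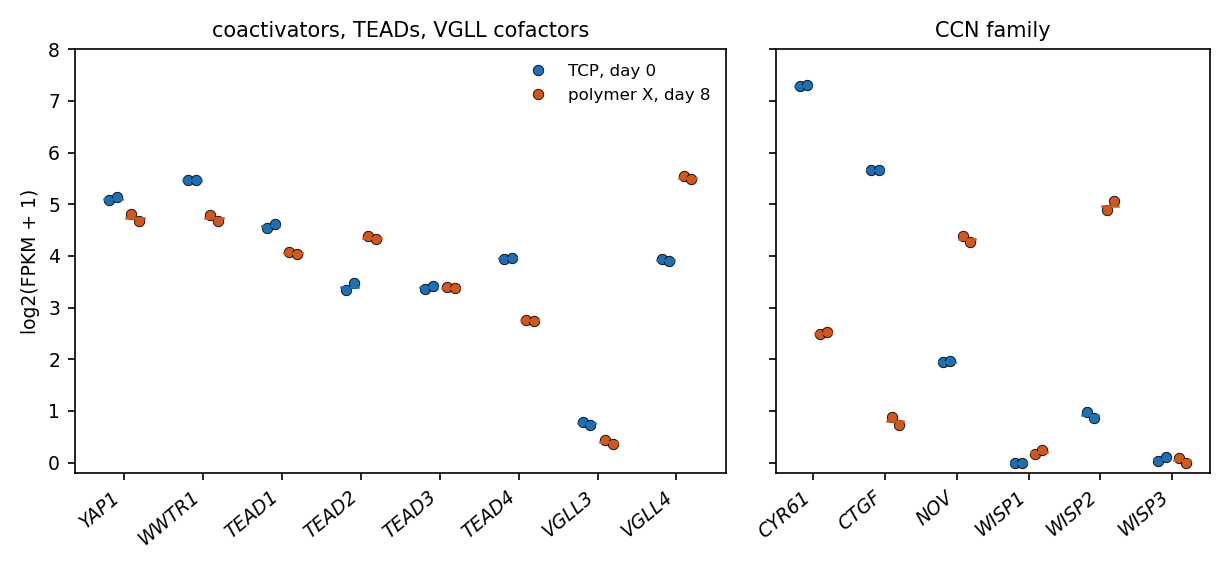
Level as log2(FPKM + 1) in each library for the coactivators, TEAD factors and VGLL cofactors (left) and for the CCN family (right), with blue points for TCP, orange points for polymer X (2 libraries each) and a line at the mean. VGLL4 and TEAD2 lie higher on polymer X and TEAD4 lower, and WISP2 and NOV lie higher where CYR61 and CTGF lie lower.

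AXL was set beside its ligand and the related receptors. GAS6, its ligand, had an FPKM of 24.4 and 23.2 on TCP and of 25.8 and 26.4 on polymer X, a log2 change of 0.13 (standard error 0.06, limma, adjusted p = 0.064). Its log2 change was 0.36 under quantile normalization (limma, adjusted p = 0.000342) and 0.17 with a common median (limma, adjusted p = 0.0206), and over all alternatives the adjusted p lay between 0.000342 and 0.338. PROS1, protein S, a ligand of the related receptors TYRO3 and MERTK, was called higher, from an FPKM of 8.15 and 7.30 to 24.6 and 22.5, a log2 change of 1.49 (limma, adjusted p = 9.8e-08). TYRO3 had an FPKM of 12.8 and 13.3 on TCP and of 7.91 and 6.78 on polymer X, a log2 change of -0.75 (limma, adjusted p = 1.3e-05), and MERTK was below the filter. On TCP the FPKM of AXL was the highest of the 3 receptors, and on polymer X AXL and TYRO3 lay at 7.06 and 7.81 against 7.91 and 6.78, within the range of their replicates.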

How the data were processed

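Processed values of 4 libraries were used, each measured by RNA-seq. The authors deposited FPKM values for 50078 RefSeq coding transcripts of hg19, counted with HOMER on exons of both strands and divided by transcript length and library depth. The submitters' processing notes also name STAR 2.4.0 and DESeq, without their roles. Transcript length in bases is an other column of the deposited file. The steps between low values gave the tags scaled to, from 38404000 to 44916000 per library, and each low value used was a whole number of tags to within 0.1. Differences between replicates exceeded counting error, as the chi-square per gene averaged 5.10 for the TCP pair and 5.82 for the polymer X pair.

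From these values, 1 transcript per symbol was kept, and the 11964 genes that reached an FPKM of 1 in 2 or more libraries entered a fit of log2(FPKM + 1) by limma 3.58.1 (R 4.3.3, trended variance prior). With 4 libraries the smallest exact two-sided permutation p is 0.333, and limma's adjusted p draws on the variance of all genes. All members are named, as are the 3 largest calls in each direction of each list and every gene of lists of at most 7. Of the further targets, 1 is not reported here and was left out of the list. Members, lists and alternatives were chosen with earlier results of these data known. Plots were drawn with matplotlib 3.10.9.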

Additional observations from a re-analysis of the deposited data

How the results depend on the processing

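All 10 members stayed lower on polymer X under every alternative that gave a value for them, and ANKRD1 had none where genes under a mean of 5 FPKM were removed. The number of targets called lower was 6, and it was 5 at that filter and without TCP replicate 1; over the fits that each left out 1 library it was 5 to 6, and for the components 0 in each. The median log2 change of the 7 targets, -2.76, was -3.01 with a pseudocount of 0.1, -3.00 at that filter, -2.66 under quantile normalization and -2.90 with the transcripts of a gene summed, and that of the components, -0.53, was -0.34 under quantile normalization.

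Over all genes, 702 were called higher with the filter at a mean of 5 FPKM, and 4477 higher and 5212 lower without a fold change minimum. At that filter 42.2% of the calls were higher, against 53.2%. Without that minimum, 2 genes of the kinase cascade were higher and 13 lower, 5 and 10 of the junction and polarity regulators, 14 of STRIPAK lower, 4 and 8 of the other signature targets, and 10 of the further targets lower. Of the lower genes, STRIP2, RBMS3, TGFB2 and THBS1 passed the filter only through the TCP libraries, the group where they were high. DCHS1, counted higher, passed only through the polymer X libraries. With the filter at a mean of 5 FPKM, which leaves fewer genes in each list, 0 junction and polarity regulators and 0 further targets were higher, 1 other signature target was lower, and the medians were -0.49 for junction and polarity regulators and -0.13 for other signature targets. Over all genes the median at that filter was -0.20, against -0.06 without it. With a pseudocount of 0.1, 2 junction and polarity regulators were higher and 2 lower, and 1 gene of STRIPAK was lower, with a median of -0.40. Under the common median 2 junction and polarity regulators were higher, and with summed transcripts 2 were lower. Quantile normalization gave 1 STRIPAK gene lower and medians of -0.10 for junction and polarity regulators, -0.29 for STRIPAK, -0.45 for other signature targets and -1.45 for further targets, whose median was -0.75 with no filter and -1.68 under the common median. The causes were not tested.

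When 1 library was removed at a time, the lone library of a group was assumed to vary like the other group. Genes called higher ranged from 1289 to 1325 and lower from 1053 to 1234, the medians from -2.80 to -2.72 for the targets and from -0.57 to -0.49 for the components, -0.32 to -0.24 for the kinase cascade (1 higher and 4 lower in each), -0.27 to -0.19 for junction and polarity regulators (1 to 2 higher, 1 to 2 lower), -0.38 to -0.35 for STRIPAK (0 lower in each), -0.59 to -0.55 for other signature targets (2 higher in each, 2 to 3 lower) and -1.74 to -1.71 for further targets (1 higher and 6 lower in each). The count of 2 junction and polarity regulators higher came without polymer X replicate 1, and the count of 2 lower without TCP replicate 1 and without polymer X replicate 1. The replicate number as a block left 1285 genes higher and 1131 lower and a median of -2.76 for the targets, and changed none of the calls given here. The differences between replicates 1 and 2 on TCP and on polymer X correlated at 0.093 over 11964 genes. This value does not settle whether libraries with the same number were handled together, and the labels do not say. Depth limits ANKRD1 on polymer X, with 4 and 8 tags.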
